A study of Mus musculus with 10 samples.

Results

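The genes of polyamine metabolism were followed in livers of mice with acute liver injury. The 9 genes chosen were Odc1, Azin1, Oaz1, Oaz2, Amd1, Srm, Sms, Sat1 and Smox, taken by symbol for their place in the pathway. They are 9 of the 38922 genes in the tables of each mouse, and each of the 9 passed the filter on low counts and was tested. RNA was sequenced from whole livers of 10 wild-type male C57BL/6N mice aged 6 weeks, of which 5 received an intraperitoneal injection of CD95-Ab at 0.5 µg/g and 5 received saline (saline-injected controls). CD95-Ab is an antibody that activates the death receptor CD95 (Fas), and livers were taken 6 h after the injection. The controls received saline and not another antibody, so effects of CD95 activation and of an injected antibody as such cannot be told apart in this design.

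Polyamines (putrescine, spermidine and spermine) are small, positively charged molecules that bind nucleic acids and are needed for growth and translation, and their levels are held within narrow limits. Odc1 makes putrescine from ornithine, Amd1 prepares the aminopropyl donor from S-adenosylmethionine, and Srm and Sms add aminopropyl groups to give spermidine and spermine. Sat1 acetylates spermidine and spermine for export or breakdown, and Smox oxidizes spermine back to spermidine with release of hydrogen peroxide. Antizymes (Oaz1, Oaz2) bind the Odc1 protein and deliver it to the proteasome, and the antizyme inhibitor Azin1 resembles Odc1 and ties up antizyme. In liver, induction of Odc1 is a classic early event of regeneration, and Sat1 is known for strong induction by toxic and inflammatory stimuli.

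Much of this control acts after transcription, and the clearest mark of it in sequence is the frameshift site of the antizymes, where the ribosome skips a base when polyamines are abundant. The sites are shown here because they set the antizymes apart from the other members, and Oaz1 and Oaz2 carry the same signal. Both were read from the transcripts and genome of GENCODE mouse release 21 (GRCm38), on the plus strand, at chr10:80828280-80828309 in a coding exon of Oaz1 and at chr9:65686257-65686286 in a coding exon of Oaz2. Capitals mark the codon TCC and the stop codon TGA that the frame shift passes over.
Oaz1: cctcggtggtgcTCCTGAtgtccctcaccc
Oaz2: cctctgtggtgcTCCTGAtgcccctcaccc
The annotated coding sequence leaves out a T of the capitals, at position 80828295 in 3 transcripts of Oaz1 and at position 65686272 in 2 transcripts of Oaz2. The 2 stretches shared 28 of 30 bases. RNA counts do not show whether the frame was shifted, so the amount of antizyme protein was not measured here.

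Promoter sequence is shown for Odc1, Sat1 and Smox, the 3 members whose RNA separated the groups upwards. The windows came from RefSeq (GRCm38.p6), which gave 8 windows for 7 of the 9 members, and stretches that overlap annotated exons were left out. Capitals mark GC boxes, the letters GGGCGG or their reverse complement, to which factors of the Sp family bind, and each stretch reads 5′ to 3′ on the strand of its gene.
Odc1 (chr12:17544623-17544793, plus strand, 171 bases): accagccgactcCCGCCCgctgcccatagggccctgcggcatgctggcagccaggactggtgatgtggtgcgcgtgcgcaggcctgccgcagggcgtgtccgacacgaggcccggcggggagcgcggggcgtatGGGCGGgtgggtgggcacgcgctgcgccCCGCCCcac
Sat1 (chrX:155216450-155216699, minus strand, 250 bases): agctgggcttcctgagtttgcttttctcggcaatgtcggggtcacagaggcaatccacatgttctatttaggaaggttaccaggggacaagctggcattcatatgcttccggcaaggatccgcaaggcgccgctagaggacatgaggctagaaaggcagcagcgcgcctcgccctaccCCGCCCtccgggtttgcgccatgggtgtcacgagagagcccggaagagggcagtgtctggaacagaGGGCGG
Smox (chr2:131491654-131491763, plus strand, 110 bases): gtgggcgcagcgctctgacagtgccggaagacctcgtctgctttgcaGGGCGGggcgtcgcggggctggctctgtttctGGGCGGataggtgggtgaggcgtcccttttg
The stretch of Odc1 holds 3 GC boxes and that of Sat1 and that of Smox hold 2 each. The Odc1 stretch ends 79 bases before the RefSeq start site, the Sat1 stretch ends directly at it, and the Smox stretch ends 98 bases before it and lies between exons of other Smox transcripts. Over the full 250 bases upstream of the start site, on both strands, a GC box was present in 32.7% of 32851 RefSeq promoters and in windows of Odc1, Oaz2, Amd1, Sms, Sat1 and Smox. The E-box CACGTG, the core site of Myc, was found in 6.02% of all promoters and, among the members, in 1 of the 2 windows of Sms. The core TGACNNNGC of the antioxidant response element, bound by the factor encoded by Nfe2l2, was found in 10.2% of all promoters and in the windows of Oaz1 and Smox. None of the members' windows held the cAMP response element TGACGTCA (1.55% of all promoters), the TATA box TATAAA (12.4%) or the kappaB site (0.356%). A match is a description of letters and not evidence of binding.

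Libraries held 25965699 to 62097636 counts per mouse. Expression is given as CPM, counts scaled to a total of 1000000 after adjustment with TMM factors, and 13719 genes were compared between groups with edgeR's quasi-likelihood test, with p-values adjusted by the Benjamini-Hochberg method (FDR). Livers of mice injected with CD95-Ab differed widely from the controls, since 47.3% of the genes tested passed an FDR of 0.05, 25.4% as higher and 22.0% as lower. Of 10 neutrophil markers, 8 were tested and all 8 rose, and the summed level of the list was 4.43 to 11.2 CPM in saline-injected controls and 114 to 469 CPM after CD95-Ab. Ly6g and Camp, which define neutrophils, had too few counts to be tested (at most 0.637 and 3.78 CPM). All 6 erythrocyte markers rose, with a sum of 135 to 325 CPM in the controls and of 1060 to 34000 CPM after CD95-Ab. The 4 globin genes among them separated the groups fully. Alas2 and Slc4a1 overlapped between groups, and in CD95-Ab mouse 1 both lay below every control. Of 10 hepatocyte markers 5 fell, including albumin, and 1 (Fgb) rose, and their sum was lower in every mouse given CD95-Ab (59100 to 98400 CPM) than in any control (116000 to 145000 CPM). In whole liver, fewer cells of a type and less RNA per cell cannot be told apart, and the part of such shifts in the results on polyamine genes was not tested.

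After CD95-Ab, 5 of the 9 polyamine genes rose (25.4% of all genes tested), 1 fell (22.0%) and 3 did not pass the test. The increases concerned the enzyme that starts synthesis, Odc1 (3.98-fold), both enzymes of breakdown, Sat1 (4.34-fold) and Smox (5.23-fold), and to a lesser degree the aminopropyl transferases Srm (1.70-fold) and Sms (1.41-fold). The antizyme gene Oaz2 fell to 0.759 of its control level, whereas Oaz1, Azin1 and Amd1 did not pass the threshold. Both groups were fully separated in 3 of the 9 genes upwards (Odc1, Sat1, Smox) and in 1 downwards (Oaz2), against 18.6% and 14.7% of all genes tested. The study also asked for a log2 fold change of at least 2 to call a gene upregulated. In the estimates made here, Sat1 and Smox passed this limit and Odc1 missed it at 1.99. With at least 10 counts required in every mouse, Odc1 was at 2.02. Of the genes tested here, 6.59% passed the limit together with the FDR. Whether the study listed these genes was not examined here. The median log2 fold change was 0.50 over the 9 genes and 0.006 over all genes tested.

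**Figure D1:**
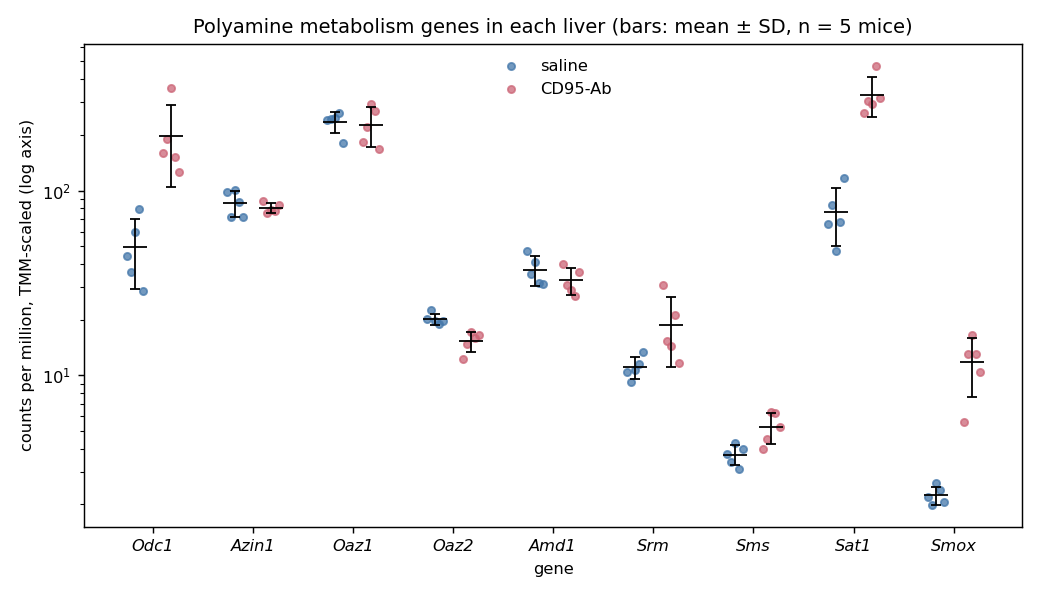
CPM (TMM-scaled, log axis) of the 9 polyamine genes in each of 5 saline-injected controls (blue) and 5 mice injected with CD95-Ab (red), with mean ± SD as black bars. Odc1, Sat1 and Smox lie higher in every mouse given CD95-Ab than in any control, Oaz2 lies lower, and the other genes overlap between groups.

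Odc1 (ENSMUSG00000011179, chr12:17544794-17551505) encodes ornithine decarboxylase, the first and rate-limiting enzyme of polyamine synthesis. Its level in saline-injected controls 1 to 5 was 44.1, 36.2, 59.4, 79.8 and 28.4 CPM, and in the mice injected with CD95-Ab it was 159.9, 191, 359, 151 and 126 CPM. Every mouse given CD95-Ab exceeded every control, with CD95-Ab mouse 3 standing far above the other 4 and control 4 standing highest among the controls. The means were 49.6 ± 20.4 CPM and 197.5 ± 93.3 CPM (SD, n = 5 each), a log2 fold change of 1.99 with a standard error of 0.34 (95% interval 1.26 to 2.73, FDR 5.01e-04 by edgeR's quasi-likelihood test with Benjamini-Hochberg adjustment). Without CD95-Ab mouse 3 the log2 fold change was 1.67, and the gene still passed the test. In CD95-Ab mice 1 to 5 the neutrophil marker sum was 114, 283, 469, 298 and 371 CPM and the erythrocyte marker sum 1060, 7060, 34000, 20700 and 5360 CPM. Mouse 3 was highest for both sums and for Odc1. Mouse 5 had the second highest neutrophil sum and the lowest Odc1, and mouse 1 had the lowest sums and more Odc1 than mice 4 and 5. The part of these cells in the level of Odc1 was not tested. The snoRNA gene Gm22748 lies within Odc1 and took at most 29 counts in any library, against at least 1221 counts of Odc1.

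Amd1 (ENSMUSG00000075232, chr10:40287458-40302186) encodes S-adenosylmethionine decarboxylase, the other regulated step of synthesis. Its level was 47.3, 35.4, 41.2, 31.4 and 31.3 CPM in the controls and 40.2, 30.9, 28.8, 26.9 and 36.2 CPM after CD95-Ab. The groups overlapped, although 3 mice given CD95-Ab lay below every control. The log2 fold change was -0.20 with a standard error of 0.15 (95% interval -0.53 to 0.14, FDR 0.317 by edgeR), so an increase of the size seen for Odc1 lies outside the interval. Amd1 and Amd2 are near-identical and reads can be shared between them, but Amd2 held 2 to 19 counts per library.

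Srm (ENSMUSG00000006442, chr4:148591503-148594993), spermidine synthase, stood at 10.4, 9.22, 10.7, 11.5 and 13.4 CPM in the controls and at 31.0, 15.4, 14.5, 21.2 and 11.6 CPM after CD95-Ab. Of the mice given CD95-Ab, 4 exceeded every control and mouse 5 lay within the control range, with mouse 1 well above the rest of its group. The log2 fold change was 0.76 with a standard error of 0.24 (FDR 0.0194 by edgeR), and it dropped to 0.50 without CD95-Ab mouse 1 (FDR 0.0399 by edgeR). Sms (ENSMUSG00000071708, chrX:157443855-157492287), spermine synthase, stood at 3.76, 3.41, 4.31, 3.12 and 3.97 CPM in the controls and at 3.98, 4.52, 6.29, 6.22 and 5.25 CPM after CD95-Ab. CD95-Ab mouse 1, the highest for Srm, was the lowest of its group for Sms and the only one within the control range. The log2 fold change of Sms was 0.50 with a standard error of 0.17 (FDR 0.0296 by edgeR). This call was not stable, since the FDR by edgeR was 0.0566, 0.0666 and 0.0812 without controls 1, 2 and 4, and 0.0745 and 0.0669 without CD95-Ab mice 3 and 4. A processed copy, Sms-ps, held 29 to 122 counts per library, and reads could have been divided between it and Sms.

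Sat1 (ENSMUSG00000025283, chrX:155213132-155216449) encodes spermidine/spermine acetyltransferase, the rate-limiting enzyme of polyamine breakdown and export. Its level was 66.0, 84.0, 47.0, 67.5 and 117 CPM in the controls and 263, 305, 296, 473 and 319 CPM after CD95-Ab. The groups lay far apart, and CD95-Ab mouse 4 stood above the rest of its group. Means were 76.3 ± 26.3 CPM and 331 ± 81.9 CPM (SD, n = 5 each), a log2 fold change of 2.12 with a standard error of 0.25 (95% interval 1.58 to 2.65, FDR 3.63e-05 by edgeR). The order of mice was not that of Odc1, since control 5 was the highest control for Sat1 and the lowest for Odc1.

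Smox (ENSMUSG00000027333, chr2:131491496-131525922) encodes spermine oxidase, which turns spermine back into spermidine and releases hydrogen peroxide and an aldehyde. Its level was 2.19, 1.99, 2.59, 2.39 and 2.06 CPM in the controls. After CD95-Ab it was at 5.58, 12.99, 16.6, 13.1 and 10.4 CPM. Every treated mouse exceeded every control. CD95-Ab mouse 1, which had the lowest sums of neutrophil and erythrocyte markers of its group, had the lowest Smox. The erythrocyte sum ranked the treated mice in the same order as Smox. The neutrophil sum did not, since mouse 5 was second highest for it and second lowest for Smox. The part of either cell type in the level of Smox was not tested. Smox had the largest fold change of the 9 genes, a log2 fold change of 2.39 with a standard error of 0.25 (95% interval 1.84 to 2.93, FDR 1.74e-05 by edgeR). The spread within the CD95-Ab group was 34.8% of the mean for Smox, 24.7% for Sat1 and 47.2% for Odc1 (coefficient of variation, n = 5 each).

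Oaz1 (ENSMUSG00000035242, chr10:80826656-80829290) encodes the main antizyme. Its level was 242, 245, 248, 263 and 180.6 CPM in the controls and 183, 219.8, 295, 270.1 and 168 CPM after CD95-Ab. The groups overlapped throughout, with control 5 well below the other controls and CD95-Ab mice 3 and 4 above every control. The log2 fold change was -0.05 with a standard error of 0.18 (95% interval -0.44 to 0.33, FDR 0.824 by edgeR), and its sign turned when CD95-Ab mouse 1 (0.01) or 5 (0.04) was left out. A change in either direction of the size seen for Odc1 lies outside this interval, whereas some smaller changes lie within it and remain possible.

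Oaz2 (ENSMUSG00000040652, chr9:65668001-65690300), the second antizyme, stood at 20.1, 22.5, 19.6, 18.9 and 19.7 CPM in the controls and at 12.3, 14.8, 17.0, 15.8 and 16.5 CPM after CD95-Ab. The controls lay close together, with a coefficient of variation of 6.81%, and every mouse given CD95-Ab fell below them. The log2 fold change was -0.40 with a standard error of 0.11 (95% interval -0.64 to -0.15, FDR 0.0123 by edgeR). Oaz2 thus passed the test with a small change and Oaz1 did not pass it, but the difference between both changes was not tested.

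Azin1 (ENSMUSG00000037458, chr15:38487427-38519266), the antizyme inhibitor, stood at 97.8, 71.5, 100.4, 86.9 and 71.8 CPM in the controls and at 87.9, 75.2, 78.6, 77.3 and 84.0 CPM after CD95-Ab. The treated mice lay within the control range without exception. The log2 fold change was -0.09 with a standard error of 0.13 (95% interval -0.36 to 0.19, FDR 0.595 by edgeR). The annotation places an antisense gene (Gm49077) over Azin1, and whether the counting used strand is not given in the sources used here.

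Each gene was also compared on its own, by an exact two-sided permutation test on log2(CPM + 0.1) over every split of 5 against 5 mice. Odc1, Oaz2, Sat1 and Smox gave p = 0.00794, the smallest value that this exact test allows, and Srm and Sms gave p = 0.0159 in the same exact test. For the remaining genes the exact permutation p was 0.516 (Azin1), 0.730 (Oaz1) and 0.230 (Amd1). These p-values are not adjusted for the 9 genes.

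**Figure D2:**
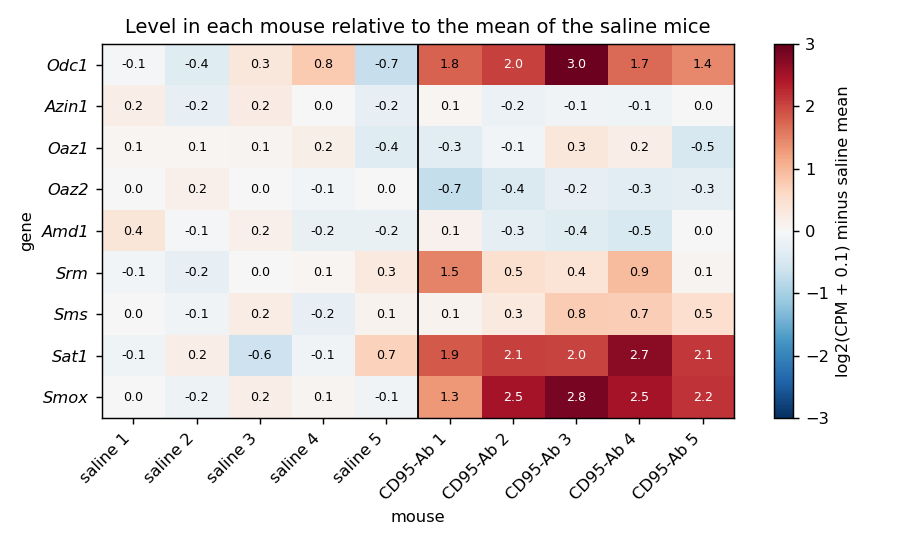
Level of each of the 9 genes (rows) in each of the 10 mice (columns) as log2(CPM + 0.1) minus the mean of the 5 saline-injected controls, with the value written in each cell. Odc1, Sat1 and Smox are 1.29 to 2.95 above the control mean in every mouse injected with CD95-Ab, where Srm ranges from 0.08 to 1.49 and the other 5 genes lie between -0.71 and 0.75.

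Set against the control mean of each gene on the log2 scale, the treated mice did not share a single pattern. In CD95-Ab mouse 3, Odc1 was 2.95 and Smox 2.84 above the control mean, and this mouse was the highest of its group for Odc1, Oaz1, Oaz2, Sms and Smox. In CD95-Ab mouse 4, Sat1 was 2.70 above the control mean but Odc1 1.70. CD95-Ab mouse 1 combined the highest Srm of the group (1.49 above the control mean) with the lowest Sms, Sat1, Oaz2 and Smox. In CD95-Ab mouse 5, Srm (0.08) was close to the control mean while Sat1 (2.13) and Smox (2.17) were not. Among controls, mouse 5 was lowest for Odc1 (-0.70) and Oaz1 (-0.37) and highest for Sat1 (0.68) and Srm (0.29), and its library was the deepest.

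Because antizyme acts by binding Odc1, the balance between both genes was compared within each mouse as the log2 ratio of their counts, which does not depend on library scaling. The ratio of Odc1 to Oaz1 was -2.45, -2.76, -2.06, -1.72 and -2.67 in the controls and -0.20, -0.20, 0.28, -0.84 and -0.41 after CD95-Ab. The groups did not overlap, and CD95-Ab mouse 3 had the highest ratio of all. The mean rose by 2.06 on the log2 scale, or 4.17-fold (exact two-sided permutation test, p = 0.00794, adjusted p = 0.0238 over 3 ratios, n = 5 mice per group). This rise largely repeats that of Odc1 (log2 fold change 1.99), since Oaz1 had a log2 fold change of -0.05, and is not a separate result. The ratio of Azin1 to Oaz1 had a mean of -1.46 ± 0.21 in the controls and -1.46 ± 0.42 after CD95-Ab (SD, n = 5 each, exact permutation test, p = 0.992). The ratio of Sat1 to Odc1, breakdown against synthesis, was 0.65 ± 1.0 in the controls and 0.82 ± 0.74 after CD95-Ab (SD, n = 5 each), a difference of 0.17 that did not pass the exact permutation test (p = 0.754, adjusted p = 0.992). It varied widely between mice, from -0.34 to 2.04 in the controls and from -0.28 to 1.65 after CD95-Ab, and the groups overlapped.

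**Figure D3:**
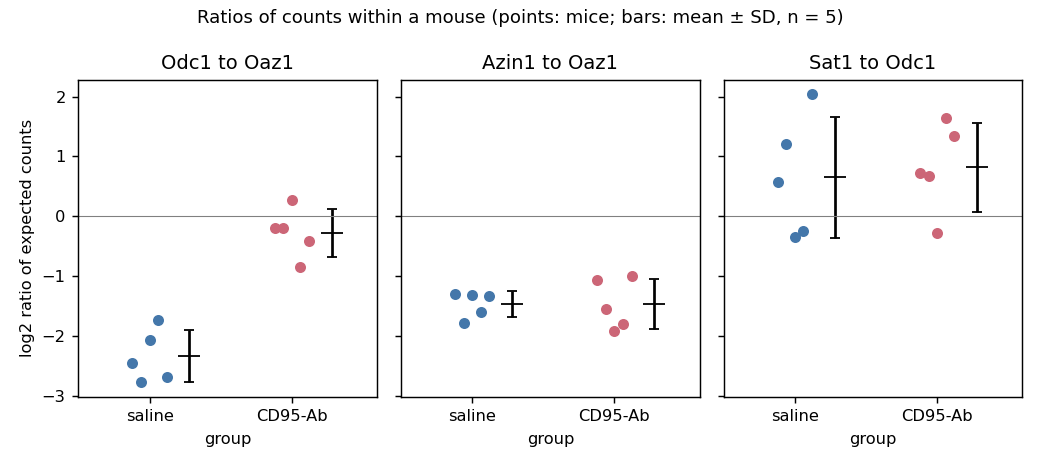
Log2 ratio of expected counts of 2 genes within each mouse, for Odc1 to Oaz1, Azin1 to Oaz1 and Sat1 to Odc1, in saline-injected controls (blue) and mice injected with CD95-Ab (red), with mean ± SD as black bars (n = 5). The Odc1 to Oaz1 ratio is at most -1.72 in the controls and at least -0.84 after CD95-Ab, whereas the other ratios overlap.

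Levels of different genes were compared as FPKM, which corrects for transcript length. In the controls Oaz1 was the highest of the 9 genes at 185 to 337 FPKM over the 5 mice, followed by Sat1 at 68.5 ± 18.5 FPKM. Azin1 (21.5 FPKM), Odc1 (20.6 FPKM), Oaz2 (12.9 FPKM), Amd1 (12.4 FPKM) and Srm (8.87 FPKM) formed a middle group in which neighbours overlapped between mice. Sms (1.57 FPKM) and Smox (1.24 FPKM) were lowest, overlapped with each other and lay below Srm in every mouse.

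After CD95-Ab the order of FPKM levels changed at both ends. Sat1 reached 281 ± 43.9 FPKM (SD, n = 5) and overlapped with Oaz1 at 264 ± 42.3 FPKM. Odc1 was the third at 76.1 ± 31.7 FPKM, below every value of Oaz1 and above every value of Azin1 (18.8 FPKM). Srm (14.8 FPKM), Amd1 (10.2 FPKM), Oaz2 (9.08 FPKM) and Smox (7.24 FPKM) followed with overlap between neighbours. Sms was last at 2.08 FPKM, below Smox in every mouse.

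**Figure D4:**
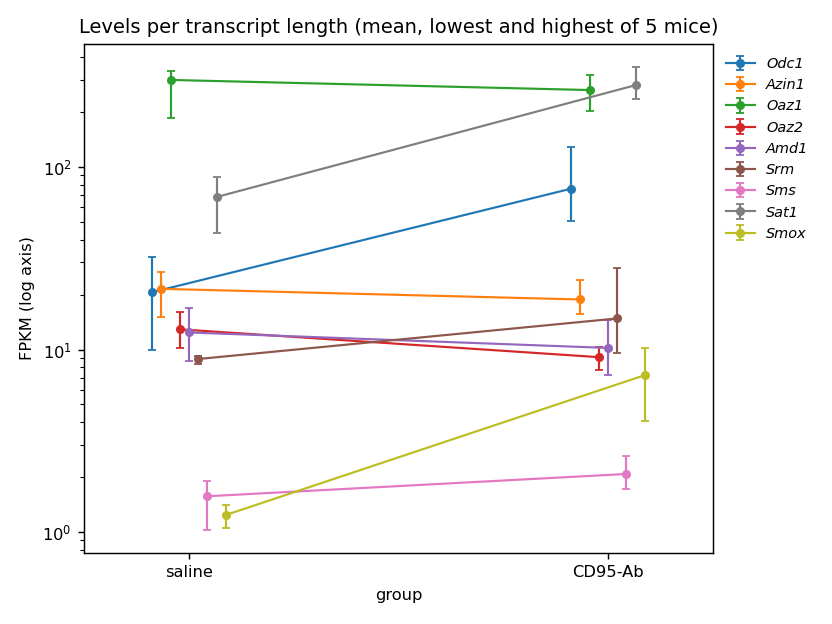
Mean FPKM (log axis) of each of the 9 genes in saline-injected controls and in mice injected with CD95-Ab, joined by a line, with bars from the lowest to the highest of 5 mice and points shifted sideways for legibility. Sat1 comes up to the level of Oaz1, Odc1 leaves the middle group and Smox passes Sms.

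Beyond the 9 genes, 39 genes around the pathway were examined, from lists chosen by role. Of these 33 were tested, and 7 rose and 13 fell, read against 25.4% and 22.0% of all genes tested. The counts of the single lists below are to be read against the same shares. The other 13 did not pass, and the median log2 fold change over the 33 was -0.12. Oaz3, Amd2, Satl1, Atp13a4, Slc22a2 and Aoc1 had too few counts to be tested. The summed level of the 39 genes was 5600 to 7010 CPM in the controls and 3700 to 5050 CPM after CD95-Ab. The highest control means among them were those of Mat1a (2307 CPM), Arg1 (1234 CPM) and Slc7a2 (646.5 CPM). Each of these genes fell, so the lower sum does not describe the 39 genes alike. The hepatocyte marker sum, to which albumin gave most, was lower in the same mice. Its part in the lower sum of the 39 genes was not tested.

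Of 4 genes that supply or use ornithine, the substrate of Odc1, 2 fell and 1 rose. Arg1, the arginase of the urea cycle, fell from 1234 ± 250 CPM to 668 ± 154 CPM (SD, n = 5 each, log2 fold change -0.88, FDR 2.85e-03 by edgeR). Arg2, the mitochondrial arginase, rose by 2.78 on the log2 scale but stayed low, from 0.209 ± 0.182 to 1.55 ± 0.341 CPM (SD, n = 5 each). Otc, which feeds ornithine into the urea cycle, fell as well (log2 fold change -0.59), and Oat did not pass the test (0.13, FDR 0.658 by edgeR). Agmat, which makes putrescine from agmatine without Odc1, also fell (-0.72).

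Of the relatives of the members, all 3 that could be tested fell. Azin2, the second antizyme inhibitor, was at 2.19, 1.69, 0.873, 1.04 and 1.13 CPM in the controls and at 0.449, 0.159, 0.438, 0.363 and 0.199 CPM after CD95-Ab, a log2 fold change of -2.13 with a standard error of 0.37 (FDR 6.16e-04 by edgeR). All treated mice lay below all controls. Sat2, a relative of Sat1, fell from 6.28 ± 0.914 to 3.39 ± 0.699 CPM (SD, n = 5 each), with a log2 fold change of -0.89 where that of Sat1 was 2.12. Paox, the oxidase that acts on acetylated polyamines downstream of Sat1, fell by 0.49 on the log2 scale (FDR 0.0141 by edgeR) with overlapping groups.

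In the hypusine pathway, in which spermidine is used to modify the translation factor encoded by Eif5a, 1 of 4 genes rose. This was Eif5a2 (log2 fold change 1.78), at 0.183 ± 0.104 CPM in the controls and 0.639 ± 0.297 CPM after CD95-Ab (SD, n = 5 each). Eif5a itself, at 205 and 236 CPM, and the modifying enzymes Dhps and Dohh did not pass the test (log2 fold changes 0.20, -0.12 and -0.13).

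Of 8 genes that provide S-adenosylmethionine or recycle methylthioadenosine, the by-product of Srm and Sms, 3 fell and none rose. Mat1a, the liver form of methionine adenosyltransferase, fell by 0.81 on the log2 scale and Mat2b, the regulatory subunit, fell by 0.76. Mat2a, the form found outside hepatocytes and in growing liver, did not pass the test (log2 fold change 0.45, FDR 0.0675 by edgeR). Adi1, a late enzyme of the salvage route, fell from 108 ± 3.71 CPM to 46.1 ± 9.83 CPM (SD, n = 5 each, log2 fold change -1.23, FDR 4.5e-05 by edgeR), while Mtap, Mri1, Apip and Enoph1 did not pass.

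Of 11 transport genes, 9 were tested, 3 rose and 3 fell. Slc7a1, a carrier of arginine and ornithine, was at 0.917, 1.39, 0.817, 0.885 and 0.426 CPM in the controls and at 11.9, 14.7, 21.7, 9.97 and 12.5 CPM after CD95-Ab. The groups lay far apart, with a log2 fold change of 4.01 with a standard error of 0.31 (FDR 2.11e-06 by edgeR). Slc7a2, the related carrier that predominates in liver, fell from 646.5 ± 203.8 CPM to 244 ± 126.5 CPM (SD, n = 5 each, log2 fold change -1.40). Slc3a2, the heavy chain of several amino acid carriers, rose by 0.86 on the log2 scale. Of the lysosomal or endosomal polyamine exporters, Atp13a3 was just within the threshold (log2 fold change 0.47, FDR 0.0481 by edgeR) and Atp13a2 fell (-0.58), as did the vesicular carrier Slc18b1 (-1.14).

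Aldh9a1, which oxidizes aldehydes derived from polyamines, fell by 0.65 on the log2 scale. Of 3 transcription factors known to act on member genes, Myc and Nfe2l2 rose and Mycn did not pass (log2 fold change 0.25). Myc, a known activator of Odc1, was at 4.99, 4.27, 2.28, 3.39 and 5.06 CPM in the controls and at 31.3, 53.2, 77.6, 79.4 and 34.9 CPM after CD95-Ab, a log2 fold change of 3.78 with a standard error of 0.33. CD95-Ab mice 3 and 4 were highest for Myc, and Odc1 was highest in mouse 3 (359 CPM) and second lowest of the group in mouse 4 (151 CPM). Whether Myc acted on Odc1 in these livers was not tested. Nfe2l2, which encodes a regulator of antioxidant genes and of Sat1, rose from 53.3 ± 6.56 to 114.6 ± 20.9 CPM (SD, n = 5 each). It was highest in CD95-Ab mouse 4, as was Sat1, but whether it acted on Sat1 in these livers was not tested.

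**Figure D5:**
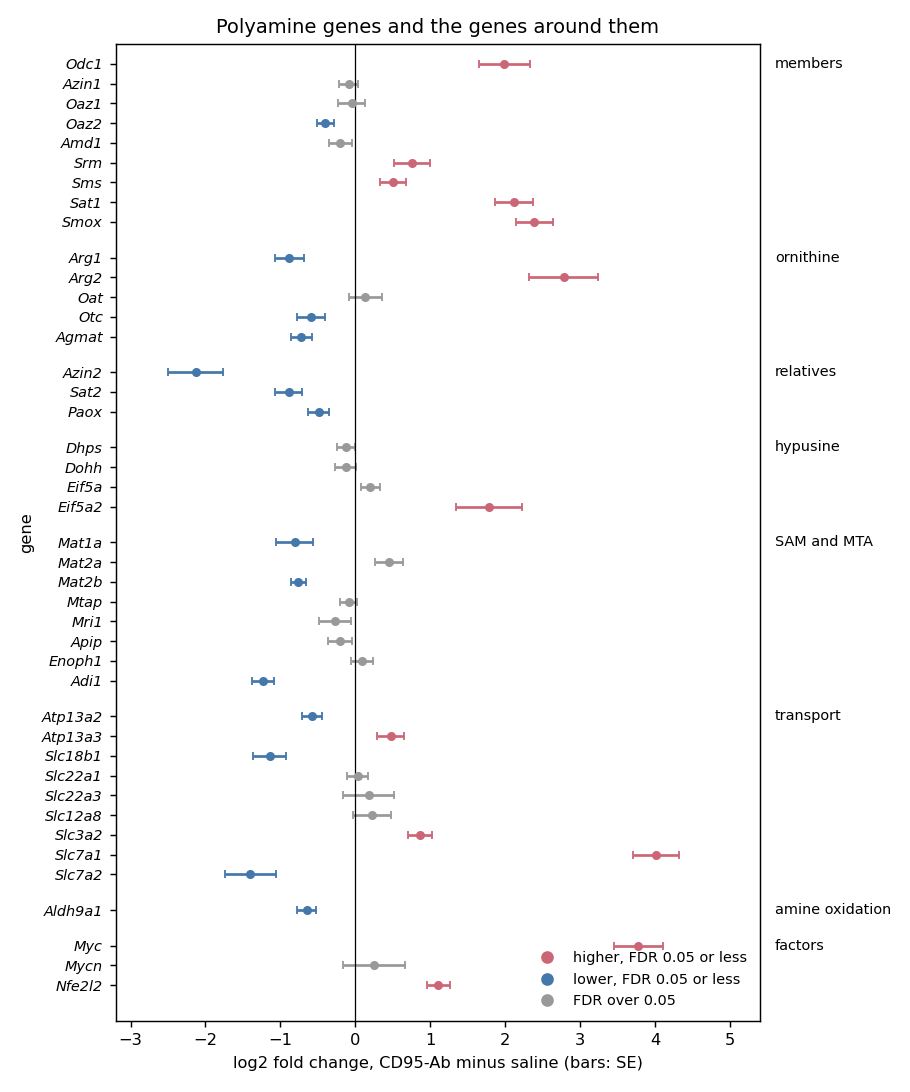
Log2 fold change (CD95-Ab minus saline, bars are standard errors) of the 9 polyamine genes and the 33 tested genes around the pathway, grouped by role and coloured by call at an FDR of 0.05 (red higher, blue lower, grey not passed). Among the 9 members 5 points are red and 1 is blue, and among the 33 other genes 7 are red and 13 are blue.

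The tested genes whose pattern over the 10 mice came closest to that of Odc1 and of Sat1 were sought by the root mean square difference of log2 CPM, after subtracting from each gene its own saline mean, among 7050 genes with a mean of at least 10 CPM. For Odc1 these were Clic4 (0.35), Bcl2l1 (0.37) and Itgb3 (0.39). For Sat1 they were Neurl3 (0.19), Mx2 (0.19) and Tgif1 (0.24), so that Sat1 had closer neighbours than Odc1. These values describe similarity over 10 mice of 2 groups and carry no test.

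Other cell types whose RNA might carry polyamine genes were followed by marker lists. All 8 monocyte markers rose, but Fn1, which hepatocytes also express strongly, made up 96.1% of their summed level in the controls. Without Fn1 the sum of the other 7 was 30.3 to 57.7 CPM in the controls and 279 to 513 CPM after CD95-Ab, and these 7 genes rose 5.36-fold to 117-fold. Markers rose in 3 of 10 cases for Kupffer cells (summed level 173 to 581 CPM in the controls and 330 to 753 CPM after CD95-Ab), in 6 of 8 for sinusoidal endothelium (55.1 to 135 and 165 to 302 CPM) and in 5 of 8 for stellate cells (167 to 263 and 392 to 738 CPM). Of 6 cholangiocyte markers 5 were tested and 4 rose (18.4 to 33.8 and 48.6 to 188 CPM, or 3.01 to 4.58 and 24.1 to 102 CPM without Spp1, which made up 86.2% of the sum in the controls), and of 8 lymphocyte markers 7 rose (1.44 to 4.49 and 8.02 to 13.2 CPM). None of the markers of these lists fell. Of all genes tested 25.4% rose and 22.0% fell, so the count for Kupffer cells is near the share of all genes. Their part in the changes of Odc1, Sat1, Smox, Srm and Sms was not tested.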

How the data were processed

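Per the labels, liver RNA of 10 mice (5 saline, 5 CD95-Ab) was sequenced, and groups were taken from the sample titles. The authors assigned reads to genes with RSEM 1.2.19 and deposited tables with expected counts and FPKM for each mouse. Deposited expected counts held whole numbers only, without normalization, so that rounding before the fit left them unchanged. Deposited FPKM correct for transcript length and library total. RSEM shares out reads that fit several genes, and the authors' mouse annotation release is not given in the sources used here. Of 38922 identifiers, 37606 matched a symbol in GENCODE mouse release 21 (GRCm38), which also gave coordinates.

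Genes were kept by filterByExpr (minimum count 10), scaled with TMM factors and compared with edgeR 4.0.16 in R 4.3.3, group being the sole term. The standard error was derived from the F statistic. At the totals found, 3 counts correspond to 0.0483 to 0.116 CPM, which limits weakly expressed genes. Intervals are confidence intervals for the difference between groups and not ranges that hold the single mice. Ratios used counts plus 0.5 and exact permutation tests. Python 3.11.15 with scipy 1.17.1 and pandas 2.3.3 handled the tables. The alternatives were DESeq2 1.42.0, limma 3.58.1 (voom), edgeR's likelihood ratio test, other scalings and filters, a prior count of 2, an FDR of 0.01, FPKM for the ratios, a block for replicate number and the omission of single mice. On simulated counts over 13254 genes (CD95-Ab against saline), the test recovered 77.6% of the genes shifted by 1 on the log2 scale and 100.0% of those shifted by 2, and 3.65% of calls fell on genes left as they were. In this simulation 200 genes were shifted, whereas 47.3% of the genes tested in the livers passed an FDR of 0.05. The simulated rates need not hold for the livers. Shifts smaller than 1, such as those of Oaz2, Srm and Sms, were not simulated. The 9 genes and the lists around them were chosen with earlier results of these data known. Named are all 9 genes, genes of the lists that passed an FDR of 0.05, a few that did not, given with their values, and the 3 genes nearest to Odc1 and to Sat1.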

Additional observations from a re-analysis of the deposited data

Results flagged for a closer look

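Each group of 5 mice was checked for a mouse whose level stood apart from the rest by Dixon's criterion, in the 9 polyamine genes, the 33 tested genes around them and the 3 ratios. Of 90 groups, 6 held such a mouse, and chance gives about 1 in 20. In CD95-Ab mouse 3, Odc1 was at 359 CPM, whereas the other treated mice were between 126 and 191 CPM. In CD95-Ab mouse 4, Sat1 was at 473 CPM, with the others between 263 and 319 CPM. In control 5, the deepest library, Oaz1 was at 181 CPM, with the other controls between 242 and 263 CPM. In CD95-Ab mouse 5, the vesicular polyamine carrier Slc18b1 was at 1.33 CPM, with the other treated mice between 0.756 and 0.834 CPM. CD95-Ab mouse 4 also stood apart in Mri1, a gene of methylthioadenosine salvage, at 14.9 CPM with the other treated mice between 7.09 and 9.27 CPM. Control 3 stood apart in Mycn, at 1.47 CPM with the other controls between 0.400 and 0.682 CPM. Odc1 and Sat1 passed the test with any mouse left out (lowest log2 fold changes 1.67 and 1.93), and Oaz1 did not pass it with or without control 5.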

How the results depend on the processing

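The calls for Odc1, Sat1 and Smox and the lack of a call for Azin1, Oaz1 and Amd1 stayed on their side of the threshold under the 11 other settings and with each mouse left out. Over those 11 settings the log2 fold change was 1.88 to 2.02 for Odc1, 2.03 to 2.16 for Sat1 and 2.27 to 2.41 for Smox. At an FDR of 0.01, Oaz2 (-0.40), Srm (0.76) and Sms (0.50) were no longer called, which left 3 genes higher and 0 lower, by edgeR. Oaz2 had an unadjusted p under 0.05 in that fit, and its FDR by DESeq2 was 0.0013. Sms also lost its call with upper-quartile scaling (0.42, FDR 0.0553), without scaling factors (0.40, FDR 0.0641), without a filter (0.46, FDR 0.0669) and with the replicate block (0.48, FDR 0.0592), all by edgeR, and in 5 of 10 fits with a mouse left out (0.41 to 0.49 in these 5, and 0.41 to 0.58 over all 10). With a mouse left out, Oaz1 ranged from -0.16 to 0.04, and the ratios ranged from -0.12 to 0.11 for Azin1 to Oaz1 and from -0.08 to 0.52 for Sat1 to Odc1, each crossing 0 without passing its test. The cause of these shifts was not tested.

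Replicate numbers are shared by both groups in the labels, but nothing ties them to a litter or day. Deviations from the group means of same-numbered mice correlated at -0.274 to 0.257, so the numbers were not taken as pairs, and 2 of 5 controls correlated best with their own number. With the replicate block 4 of the 9 genes rose and 1 fell, Sms being the call that changed among them, and the ratio of Odc1 to Oaz1 differed by 2.06 with an adjusted p of 0.188 (exact permutation of signs), where 5 pairs allow no p below 0.0625. Genes at a few counts, such as Azin2 and Arg2, are limited by depth.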
